A study of Mus musculus with 28 samples.

Results

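Il7r, Flt3, Rag1, Lck, Tespa1, Samsn1, Ptpn7 and Cd69 encode receptors, adaptors and enzymes best known from lymphocytes, and their RNA levels were followed while blood cells emerge from the endothelium of the mouse embryo. They are a listed set of 8 genes out of 24015 gene symbols counted, and several were selected on their measured rise in the pre-HSC populations of E10.5. Their values in comparisons that involve pre-HSC are therefore given as descriptions without a test. RNA was sequenced in 28 libraries, each a pool of 100 sorted cells, from 9 populations. At E8.5 these were hemogenic endothelium (HE, 4 libraries), the endothelium that gives rise to blood, and other endothelial cells (EC, 3 libraries). At E9.5 they were a population labelled pro-HSC/HPC (HPC for hematopoietic progenitor cell), HE and EC, with 3 libraries each. At E10.5 they were pre-HSC II, pre-HSC I, HE and EC, with 3 libraries each. Every embryo carried the 23GFP transgene, a GFP reporter driven by an enhancer of the blood regulator Runx1, and no population without it is compared. The dissected tissue has the label PAS+VU on the earlier days and AGM+VU at E10.5. The labels and protocols do not describe the sort gates, nor how many embryos or litters a pool holds, so p-values measure the spread between these pools, which the design text calls biological replicates.

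Hemogenic endothelial cells leave the vessel wall and pass through precursors of the hematopoietic stem cell (pre-HSC I, which lacks surface CD45, and pre-HSC II, which has it) before they can repopulate an adult host. The interleukin-7 receptor and the FLT3 receptor tyrosine kinase carry survival and growth signals to lymphoid and multipotent progenitors, RAG1 cuts antigen receptor genes together with RAG2, and LCK starts signalling from the T cell receptor. TESPA1 and SAMSN1 are adaptor proteins of thymocytes and B cells, PTPN7 (HePTP) is a phosphatase that acts on MAP kinases in blood cells, and CD69 is an early activation antigen that binds the lipid receptor S1PR1.

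The libraries held 16308918 to 31405603 counts, with 13935 to 16050 genes detected. Values are CPM, counts relative to the total of the library after TMM scaling, and 3 counts correspond to 0.108 to 0.188 CPM in a library. Of the 8 genes, 7 passed the filter on low counts, and Rag1 did not. Il7r, Flt3, Tespa1 and Cd69 passed it only through their pre-HSC libraries. The labelled types were compared with their markers. All 7 endothelial markers were detected in every population, with summed levels of 329 to 418 CPM in pre-HSC II, 958 to 1300 CPM in pre-HSC I and 3220 to 3340 CPM in E10.5 HE. Of 12 T cell markers, Cd3e had 0 counts in all 28 libraries, and the summed level of the list lay between 5.89 and 33.8 CPM in all libraries. The summed level of the B cell marker list lay between 8.48 and 58.9 CPM in all libraries. Of 8 markers of NK and innate lymphoid cells, 4 were above 0 in pre-HSC II, and their summed level was at most 6.96 CPM in any library. Of 6 dendritic cell markers, Cd209a had 3 counts in pre-HSC II and 0 elsewhere. The summed level of the list lay between 2.57 and 28.3 CPM in all libraries. It was 3.45 to 5.97 CPM in pre-HSC II, 2.57 to 5.06 CPM in pre-HSC I, 6.34 to 12.4 CPM in E10.5 HE and 11.1 to 28.3 CPM in E10.5 EC. Granulocyte and macrophage markers (11 of 12 detected in both pre-HSC populations, Emr1 at 0) summed to 578 to 799 CPM in pre-HSC II, 158 to 287 CPM in pre-HSC I, 51.6 to 104 CPM in pro-HSC/HPC and at most 23.9 CPM in the HE and EC libraries. The erythroid list reached 12100 and 4060 CPM in pro-HSC/HPC replicates 2 and 3 and 1400 CPM in pre-HSC I replicate 3, and was at most 30.2 CPM in the other libraries. Mast cell markers summed to at most 3.33 CPM in any library. Megakaryocyte and platelet markers summed to 130 to 290 CPM in pre-HSC II, 166 to 258 CPM in pre-HSC I and 124 to 717 CPM in pro-HSC/HPC, and to 57.6 CPM or less in HE and EC. The part of these other cells in the results below was not tested, and in pools of cells a smaller number of cells of a type cannot be told apart from less RNA per cell.

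Promoter windows show which short letters of blood transcription factor motifs stand at the starts of these genes. RefSeq windows (GRCm38.p6, 250 bases before to 50 bases after the annotated start) were found for 6 of the 8 genes, with 8 windows in all, since Lck and Ptpn7 have 2 annotated starts each. Tespa1 and Cd69 had no entry. On both strands, 3 motifs were searched, namely TGTGGT for RUNX factors, GGAAGT for ETS factors and AGATAA for GATA factors. No match overlaps another in the windows shown. Printed below, 5′ to 3′ on the gene's strand with the matched letters in capitals, are the windows of Il7r and Flt3, whose RNA was low before E10.5, of Rag1, which stayed near 0 in all populations, and of Samsn1 and Lck, which had endothelial RNA.

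Il7r, chr15:9529827-9530126, minus strand: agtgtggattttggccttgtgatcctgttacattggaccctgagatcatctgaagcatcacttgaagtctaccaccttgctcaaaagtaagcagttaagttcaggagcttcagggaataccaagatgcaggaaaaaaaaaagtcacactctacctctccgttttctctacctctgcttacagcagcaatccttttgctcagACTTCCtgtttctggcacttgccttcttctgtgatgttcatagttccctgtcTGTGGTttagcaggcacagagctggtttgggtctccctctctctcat

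Flt3, chr5:147400440-147400739, minus strand: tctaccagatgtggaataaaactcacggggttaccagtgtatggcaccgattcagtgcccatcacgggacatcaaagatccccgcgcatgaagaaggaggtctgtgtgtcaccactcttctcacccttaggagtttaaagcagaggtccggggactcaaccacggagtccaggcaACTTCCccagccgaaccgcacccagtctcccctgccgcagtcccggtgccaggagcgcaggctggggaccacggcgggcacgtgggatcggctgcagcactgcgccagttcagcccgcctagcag

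Rag1, chr2:101649483-101649782, minus strand: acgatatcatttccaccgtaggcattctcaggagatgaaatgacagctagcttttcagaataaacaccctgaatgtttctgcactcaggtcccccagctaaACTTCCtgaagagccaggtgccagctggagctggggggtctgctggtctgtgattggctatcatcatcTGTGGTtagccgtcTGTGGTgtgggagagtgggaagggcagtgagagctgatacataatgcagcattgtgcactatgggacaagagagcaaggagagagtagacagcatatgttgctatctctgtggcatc

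Samsn1, chr16:75909217-75909516, minus strand: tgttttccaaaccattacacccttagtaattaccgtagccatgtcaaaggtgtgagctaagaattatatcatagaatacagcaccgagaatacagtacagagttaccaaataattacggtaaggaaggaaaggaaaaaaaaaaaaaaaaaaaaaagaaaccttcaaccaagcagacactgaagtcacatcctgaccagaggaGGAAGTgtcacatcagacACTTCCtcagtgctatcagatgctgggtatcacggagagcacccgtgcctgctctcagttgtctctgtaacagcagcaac

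Lck upstream start, chr4:129573592-129573891, minus strand: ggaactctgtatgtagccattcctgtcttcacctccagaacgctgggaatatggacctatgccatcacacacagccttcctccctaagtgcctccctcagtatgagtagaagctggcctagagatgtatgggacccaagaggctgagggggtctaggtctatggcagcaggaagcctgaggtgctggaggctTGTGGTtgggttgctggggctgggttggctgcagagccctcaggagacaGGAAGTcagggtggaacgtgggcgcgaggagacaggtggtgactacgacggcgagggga

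Lck downstream start, chr4:129558323-129558622, minus strand: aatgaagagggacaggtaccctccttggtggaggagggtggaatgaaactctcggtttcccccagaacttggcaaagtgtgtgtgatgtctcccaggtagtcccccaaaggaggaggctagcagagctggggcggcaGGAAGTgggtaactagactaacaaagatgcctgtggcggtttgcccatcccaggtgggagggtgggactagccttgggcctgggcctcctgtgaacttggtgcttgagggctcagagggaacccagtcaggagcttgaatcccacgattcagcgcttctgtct

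The ETS letters were in 6 of the 8 windows, against 23.8% of 32851 promoter windows of the genome, and the RUNX letters in 3 of the 8, against 16.8%. The GATA letters were in 0 of the 8, against 11.2%. Rag1, with 4 counts in all, had 2 matches to the RUNX letters and 1 to the ETS letters. Il7r had 1 of each, and its level ran to 25.4 CPM. The upstream Lck start had the RUNX letters and the downstream start did not. Both Ptpn7 windows, chr1:135132450-135132749 and chr1:135133059-135133358 on the plus strand, had 0 matches to the 3 motifs, although Ptpn7 RNA was present in every library. A match is only a match of letters, and the windows say nothing about which start was used, since counts were summed over each gene.

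**Figure D1:**
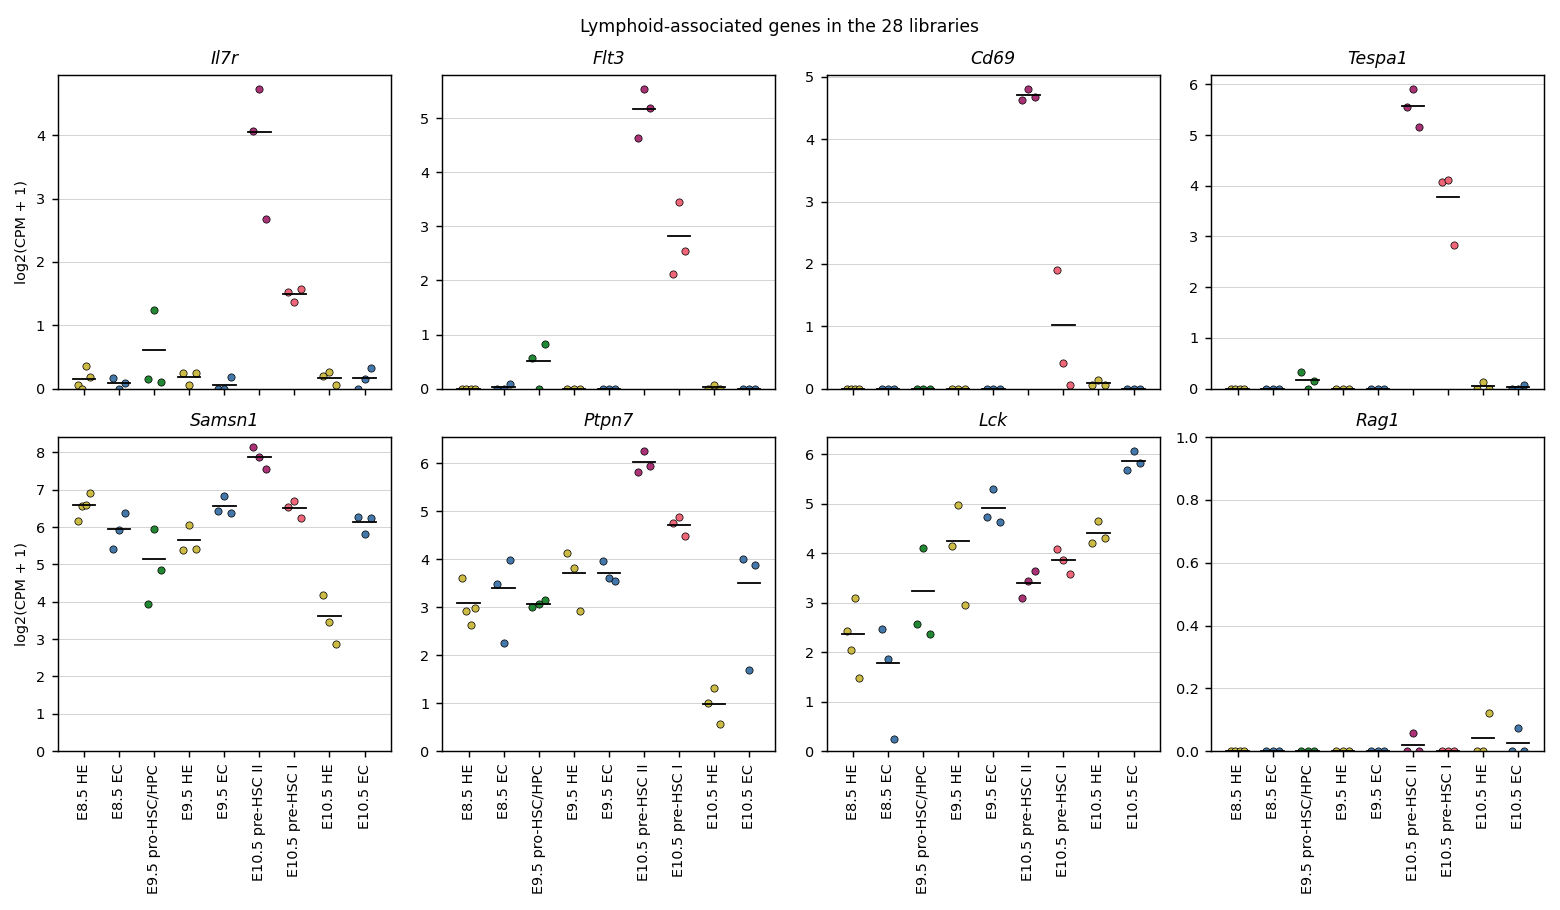
Level of each of the 8 genes as log2(CPM + 1), with 1 point per library and a bar at the log2 of the mean CPM + 1 of the group. The vertical scale differs between panels. Il7r, Flt3, Cd69 and Tespa1 are lower in every library outside pre-HSC II and pre-HSC I than in any pre-HSC II library. Samsn1 and Ptpn7 have their lowest mean in E10.5 HE, Lck is highest in E10.5 EC, and Rag1 has 4 counts in all.

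Il7r (mm9 chr15:9435914-9459631, minus strand), the alpha chain of the interleukin-7 receptor, was highest in pre-HSC II. It measured 15.7, 25.4 and 5.41 CPM in pre-HSC II, against 1.87, 1.57 and 1.98 CPM in pre-HSC I. The E10.5 HE libraries held 0.144, 0.197 and 0.0439 CPM, or 9 counts in all. The 3 populations did not overlap, and pre-HSC II varied most. The fitted log2 difference was 3.10 ± 1.21 (SE) in pre-HSC II against pre-HSC I and 3.77 ± 1.30 for pre-HSC I against HE. In pro-HSC/HPC, Il7r had 3, 33 and 2 counts, so that replicate 2 held most of the 38 counts. Pre-HSC I was 1.79 ± 1.18 log2 units above pro-HSC/HPC. The difference was 4.21 without that library and 1.31 without pro-HSC/HPC replicate 3. The other endothelial libraries held between 0 and 6 counts each. Below pro-HSC/HPC in the order of means, no neighbouring populations were separated.

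Flt3 (mm9 chr5:148142317-148212065, minus strand), the receptor for FLT3 ligand, was almost restricted to the blood populations. Its levels were 23.8, 45.3 and 35.3 CPM in pre-HSC II, against 3.33, 9.90 and 4.85 CPM in pre-HSC I. Among the HE libraries of the 3 days, E10.5 HE replicate 2 held 1 count and the others 0. Among the EC libraries, E8.5 EC replicate 3 held 1 count and the others 0. Pre-HSC II stood 2.53 ± 0.91 log2 units above pre-HSC I. The depth-scaled ratio of pre-HSC I to E10.5 HE was 428, from 389 counts against 1 count, with a 95% counting interval of 76.3 to 16900. Pro-HSC/HPC had 13, 0 and 21 counts of Flt3, and pre-HSC I was 3.81 ± 0.98 log2 units higher than pro-HSC/HPC. The difference was 4.58 without pro-HSC/HPC replicate 3 and 3.25 without pro-HSC/HPC replicate 2.

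Cd69 (mm9 chr6:129217343-129225387, minus strand), the activation antigen, appeared in pre-HSC II. It measured 23.8, 26.8 and 24.7 CPM there, against 2.73, 0.333 and 0.0422 CPM in pre-HSC I. The pre-HSC II libraries lay close together (SD 1.55 CPM), while in pre-HSC I replicate 1 held 54 of the 62 counts. Cd69 had 0 counts in every library of E8.5, of E9.5 and of E10.5 EC, and 4 counts in E10.5 HE. The log2 difference of pre-HSC II over pre-HSC I was 4.60 ± 1.17. It was 7.03 without pre-HSC I replicate 1 and 4.03 without pre-HSC I replicate 3. The log2 difference of pre-HSC I over HE was 4.03 ± 1.26, and these groups overlap. It was 1.61 without pre-HSC I replicate 1 and 4.6 without pre-HSC I replicate 3. In pro-HSC/HPC Cd69 had 0 counts.

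Tespa1 (mm9 chr10:129759908-129799698, plus strand), the thymocyte adaptor, followed the pattern of Flt3. It had 46.2, 58.7 and 34.8 CPM in pre-HSC II, against 15.9, 16.3 and 6.16 CPM in pre-HSC I. All E8.5 and E9.5 HE and EC libraries were at 0, and E10.5 HE and EC held 2 counts and 1 count. Pre-HSC II lay 1.87 ± 0.73 log2 units above pre-HSC I, without overlap. The ratio of pre-HSC I to E10.5 HE was 441, from 803 counts against 2, with a counting interval of 122 to 3650. In pro-HSC/HPC there were 7, 0 and 3 counts, and pre-HSC I was 6.60 ± 0.95 log2 units higher. The difference was 7.68 without pro-HSC/HPC replicate 1 and 6.07 without pro-HSC/HPC replicate 2.

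Rag1 (mm9 chr2:101478411-101489689, minus strand) was not expressed at a measurable level in any population. Its 4 counts were 2 in E10.5 HE replicate 3, 1 in E10.5 EC replicate 2 and 1 in pre-HSC II replicate 2. In each of the 9 groups the sum was below the floor of 3 counts, which corresponds to 0.0315 to 0.0481 CPM over a group. No fold is given between groups at or under that floor.

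Samsn1 and Ptpn7 were present in every library and had their lowest mean in E10.5 HE. For Samsn1 the E10.5 HE libraries overlapped pro-HSC/HPC, the next population in the order of means, and for Ptpn7 they did not. Samsn1 (mm9 chr16:75859039-75909511, minus strand), an adaptor that restrains B cell activation, had 282, 232 and 186 CPM in pre-HSC II, against 92.0, 102.0 and 75.1 CPM in pre-HSC I. It had 17.3, 9.92 and 6.32 CPM in E10.5 HE. These 3 populations did not overlap, but pre-HSC I overlapped the 4 E8.5 HE libraries, which ran from 70.6 to 119.7 CPM. Pre-HSC II was 1.38 ± 0.38 log2 units above pre-HSC I, and pre-HSC I 3.00 ± 0.41 above HE. In pro-HSC/HPC Samsn1 measured 14.4, 60.8 and 28.1 CPM, and pre-HSC I was 1.38 ± 0.38 log2 units higher. The difference was 2.09 without pro-HSC/HPC replicate 2 and 1.04 without pro-HSC/HPC replicate 1.

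Ptpn7 (mm9 chr1:137029302-137041897, plus strand), the MAP kinase phosphatase HePTP, measured 55.2, 75.8 and 60.5 CPM in pre-HSC II, against 26.2, 28.3 and 21.4 CPM in pre-HSC I. The E10.5 HE libraries had 1.01, 1.47 and 0.483 CPM. As with Samsn1, the 3 populations did not overlap. Pre-HSC II was 1.34 ± 0.51 log2 units above pre-HSC I, and pre-HSC I 4.68 ± 0.60 above HE. The pro-HSC/HPC libraries were close together at 7.04, 7.33 and 7.84 CPM, and pre-HSC I lay 1.77 ± 0.52 log2 units higher.

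Lck (mm9 chr4:129225588-129250885, minus strand), the Src-family kinase of T cells, was highest in endothelium. It had 7.50, 9.84 and 11.4 CPM in pre-HSC II, against 15.9, 13.6 and 11.0 CPM in pre-HSC I. E10.5 HE had 17.4, 24.0 and 18.8 CPM and E10.5 EC 49.9, 65.5 and 55.9 CPM. Pre-HSC II overlapped pre-HSC I, pre-HSC I was below HE without overlap, and EC was above all other groups. The log2 difference was -0.49 ± 0.62 in pre-HSC II against pre-HSC I and -0.58 ± 0.62 for pre-HSC I against HE. Pro-HSC/HPC had 4.91, 16.2 and 4.12 CPM, and pre-HSC I was 0.68 ± 0.62 log2 units above it. The difference was 1.58 without pro-HSC/HPC replicate 2 and 0.377 without pro-HSC/HPC replicate 3. A microRNA gene, Mir8119, overlaps 25 exonic bases of Lck in the annotation of the count table and had at most 5 counts in any library. None of the 3 nearest genes of each other member shares an exonic base with it.

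Of the 8 genes, 6 had their highest mean in pre-HSC II, which is the pattern several were picked for. Among all genes, 0.138% were called higher in pre-HSC II than in pre-HSC I and 3.08% higher in pre-HSC I than in E10.5 HE at an adjusted p under 0.05 (edgeR), figures given only as the background of the choice. Between genes, levels were compared per kilobase of exon. In pre-HSC II, Samsn1 had 126 ± 26.1 CPM per kilobase, Tespa1 27.5 ± 7.06, Ptpn7 19.6 ± 3.28, Cd69 15.5 ± 0.957, Flt3 9.52 ± 2.94, Il7r 4.83 ± 3.12 and Lck 4.18 ± 0.863 (SD, n = 3). In pre-HSC I the values per kilobase were 48.6 ± 7.37 for Samsn1, 7.75 ± 1.09 for Ptpn7, 7.54 ± 3.39 for Tespa1 and 5.86 ± 1.06 for Lck. Flt3, Cd69 and Il7r followed there with 1.65 ± 0.940, 0.638 ± 0.909 and 0.563 ± 0.0662 CPM per kilobase. Lck and Il7r had the lowest means of the 7 detected genes in pre-HSC II, and their order differed between libraries, with 4.98 for Lck and 1.69 for Il7r in replicate 3. In the means Lck ranked above Flt3, Cd69 and Il7r in pre-HSC I.

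**Figure D2:**
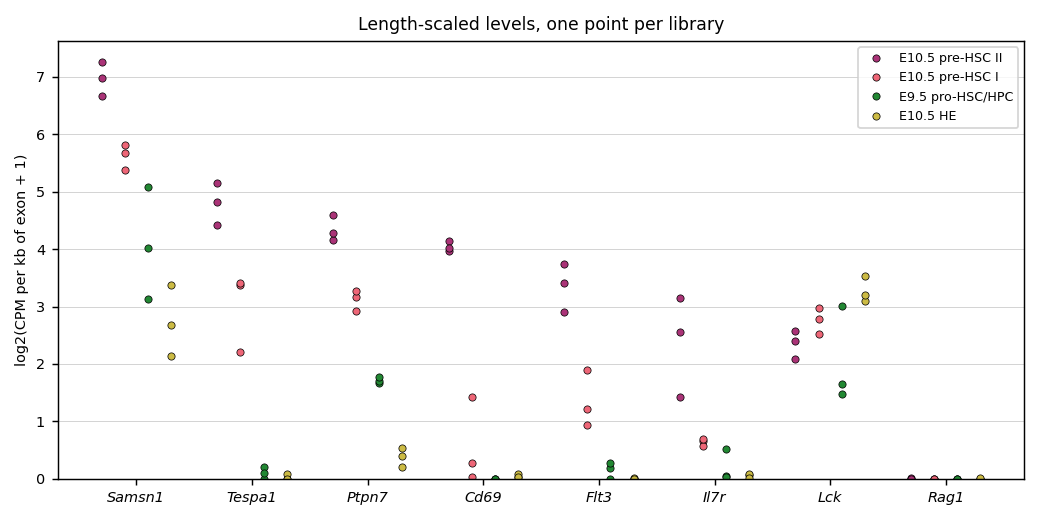
Levels per kilobase of exon, as log2(CPM per kilobase + 1), in pre-HSC II, pre-HSC I, pro-HSC/HPC and E10.5 HE, with 1 point per library. Samsn1 is the highest of the 8 genes in pre-HSC II, and Lck is the gene whose E10.5 HE points lie above its pre-HSC II points.

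Across the 28 libraries the genes fell into 3 patterns, described here by Pearson's r of log2(CPM + 1). Il7r, Flt3, Tespa1 and Cd69 correlated with each other at 0.89 to 0.979. Samsn1 and Ptpn7 correlated at 0.797 with each other and at 0.544 to 0.749 with those 4 genes. Lck correlated at -0.0873 to -0.0245 with the 6 others. The libraries of a population share their cell type and day, so they are not independent points. Several members were picked for their rise in pre-HSC, and Il7r, Flt3, Tespa1 and Cd69 are low elsewhere. High r among these 4, and with other genes high in pre-HSC, follows in part from that choice. The values of r are descriptions only. For each gene the 3 genes with the highest r were taken. The genes most like Tespa1 were Il21r, a cytokine receptor chain that pairs with the common gamma chain (0.992), Myo1g (0.979) and Cytip (0.977), out of 10442 genes compared. Flt3 was most like Ptprc, which encodes CD45 (0.984), Bex6 (0.983) and Coro2a (0.982). Il7r was most like Cd52 and Wfdc17 (0.959 each) and Bex6 (0.955), and Cd69 like Wfdc17 (0.974), Ebi3 (0.961) and Serpina3f (0.956). The best matches of the other 3 were lower. They were Kctd12 (0.86), Gmfg (0.853) and Kif15 (0.807) for Samsn1, Morc3 (0.822), Kif15 (0.811) and Wdr34 (0.803) for Ptpn7, and Dmtn (0.826), Gpr183 (0.818) and Trib2 (0.809) for Lck.

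E9.5 pro-HSC/HPC was compared with HE of the same day, a contrast on which the genes were not picked, to see whether they differ at the earlier step into blood. Cd69 had 0 counts in both groups and could not be called, and none of the other 6 genes in the fit passed the test. Flt3 had 0.487, 0 and 0.780 CPM in pro-HSC/HPC, or 34 counts, against 0 counts in the 3 HE libraries (edgeR adjusted p = 0.12). The HE libraries were all at 0, and so was pro-HSC/HPC replicate 2, so the groups overlap. The deviations of libraries of the same replicate number correlated here (0.135 to 0.344), but libraries of different numbers were not compared. With the replicate block within each day Flt3 passed (edgeR adjusted p = 0.04). It also passed without pro-HSC/HPC replicate 2, the library with 0 counts (edgeR adjusted p = 0.026). Il7r, Flt3 and Tespa1 passed the filter only through pre-HSC, where several members were picked. Their p-values here are therefore no independent test, and no conclusion is drawn from them. Tespa1 had 10 counts in pro-HSC/HPC and 0 in HE (edgeR adjusted p = 0.43). Samsn1 averaged 34.4 ± 23.8 CPM in pro-HSC/HPC and 49.3 ± 14.3 CPM in HE (SD, n = 3 each), a log2 difference of -0.52 ± 0.38 (SE, edgeR adjusted p = 1). Lck averaged 8.40 ± 6.74 CPM in pro-HSC/HPC and 17.8 ± 11.8 CPM in HE (log2 difference -1.09 ± 0.62, edgeR adjusted p = 0.85). Ptpn7 averaged 7.40 ± 0.403 CPM in pro-HSC/HPC and 12.1 ± 5.0 CPM in HE (log2 difference -0.70 ± 0.51, edgeR adjusted p = 1). Il7r had 38 counts in pro-HSC/HPC and 9 in HE (edgeR adjusted p = 0.97), and Cd69 0 in both. The edgeR count of 0 stands beside 2 members (Flt3 and Tespa1) and 1060 genes with an unadjusted p under 0.05, and beside 0 by DESeq2 and by limma voom. Of all 15238 genes tested, 0.656% were called, or 100 genes, and 218 with the within-day block. Pro-HSC/HPC replicate 2 was the library with the highest Il7r, Lck and Samsn1 of its group, it had 0 counts of Flt3 and Tespa1, and it also held the highest erythroid level of all libraries.

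At E10.5, HE had less Samsn1 and Ptpn7 RNA than EC. The comparison asks how endothelium that makes blood differs from other endothelium. Its HE libraries are also the base of the pre-HSC rise on which several genes were selected, so the members' values in E10.5 HE are given as descriptions without a test. Samsn1 had 17.3, 9.92 and 6.32 CPM in HE, against 76.0, 55.2 and 75.0 CPM in EC. Ptpn7 had 1.01, 1.47 and 0.483 CPM in HE, against 15.1, 2.24 and 13.7 CPM in EC. Neither gene's groups overlap, and EC replicate 2 was the low EC library for both, most of all for Ptpn7. The log2 difference of HE against EC was -2.62 ± 0.40 (SE) for Samsn1 and -3.39 ± 0.57 for Ptpn7. With each of the 6 libraries left out in turn it was -3.07 to -2.33 for Samsn1 and -3.87 to -3.02 for Ptpn7. Lck had 17.4, 24.0 and 18.8 CPM in HE, against 49.9, 65.5 and 55.9 CPM in EC. Its groups do not overlap, with a log2 difference of -1.51 ± 0.62. Il7r had 9 counts in HE and 7 in EC, Cd69 4 and 0, Tespa1 2 and 1, and Flt3 1 and 0. As background, edgeR called 530 of all genes tested in this comparison, 321 higher and 209 lower in HE. How many of all genes have no overlap between these groups was not counted.

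At the earlier days Samsn1, Ptpn7 and Lck did not pass in HE against EC. Il7r was not called either, but its counts were too few to say whether it differed. Flt3, Tespa1 and Cd69 had at most 1 count in the libraries of either day and could not be called. At E9.5 Samsn1 had 40.6, 65.8 and 41.3 CPM in HE, against 85.8, 112.5 and 82.3 CPM in EC. The groups do not overlap, with a log2 difference of -0.93 ± 0.38 (SE, edgeR adjusted p = 0.62, and 0.11 with the within-day replicate block). Ptpn7 had 16.4, 13.1 and 6.61 CPM in E9.5 HE, against 14.6, 11.2 and 10.7 CPM in EC (log2 difference -0.01 ± 0.50, edgeR adjusted p = 1). Lck had 16.6, 30.2 and 6.70 CPM in HE, against 25.7, 38.5 and 23.6 CPM in EC, with overlap between the groups but lower in HE in each same-numbered pair (log2 difference -0.71 ± 0.62, edgeR adjusted p = 1, and 0.63 with that block). At E9.5 edgeR called 0.302% of all genes (46 genes, and 168 with the within-day replicate block), and 1 of the members and 997 genes had an unadjusted p under 0.05. At E8.5 Samsn1 had 70.6, 92.7, 95.7 and 119.7 CPM in HE, against 41.6, 59.8 and 82.4 CPM in EC (log2 difference 0.63 ± 0.36, edgeR adjusted p = 0.31). Ptpn7 had 11.2, 6.57, 5.18 and 6.94 CPM in E8.5 HE, against 10.3, 3.77 and 14.9 CPM in EC (log2 difference -0.36 ± 0.47, edgeR adjusted p = 0.72). Lck had 4.35, 3.11, 7.51 and 1.79 CPM in E8.5 HE, against 4.55, 2.63 and 0.188 CPM in EC (log2 difference 0.74 ± 0.60, edgeR adjusted p = 0.51). All 3 genes overlap between the groups at E8.5. Samsn1 was higher in HE in each of the 3 same-numbered pairs (edgeR adjusted p = 0.2 with the within-day block). At E8.5 edgeR called 6.81% of all genes (1038 genes, and 2193 with that block) and 0 members and 3313 genes had an unadjusted p under 0.05. DESeq2 and limma voom also called 0 members on both days. Il7r had 9 counts in E9.5 HE and 3 in E9.5 EC, and 10 in E8.5 HE and 4 in E8.5 EC.

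**Figure D3:**
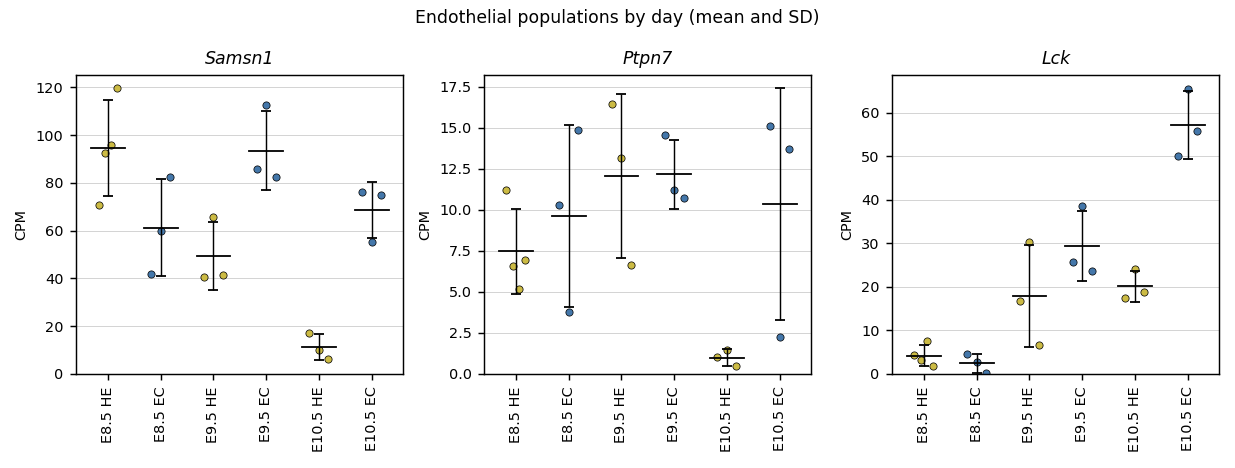
Samsn1, Ptpn7 and Lck in CPM on a linear scale in HE and EC of each day, with 1 point per library and the mean and SD. In E10.5 HE, Samsn1 averages 11.2 CPM and Ptpn7 0.988 CPM, below E10.5 EC, while Lck is at its highest in E10.5 EC with a mean of 57.1 CPM.

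The HE-EC difference was set side by side between days, after the values had been seen. At E9.5 relative to E8.5, where E10.5 HE plays no part, it was -1.55 ± 0.52 log2 units for Samsn1 (SE, edgeR adjusted p = 0.24), 0.35 ± 0.69 for Ptpn7 (edgeR adjusted p = 0.98) and -1.46 ± 0.86 for Lck (edgeR adjusted p = 0.68). At E10.5 relative to E9.5 it was -1.69 ± 0.54 for Samsn1, -3.38 ± 0.75 for Ptpn7 and -0.79 ± 0.87 for Lck, and at E10.5 relative to E8.5 -3.25 ± 0.53, -3.03 ± 0.73 and -2.25 ± 0.87 in the same order. The values with E10.5 are descriptions, for the reason given above.

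Within HE, Samsn1 and Ptpn7 were lower at E10.5 than at E9.5, again without a test. Samsn1 had 17.3, 9.92 and 6.32 CPM at E10.5, against 40.6, 65.8 and 41.3 CPM at E9.5, a log2 difference of -2.14 ± 0.39 (SE). Ptpn7 had 1.01, 1.47 and 0.483 CPM at E10.5, against 16.4, 13.1 and 6.61 CPM at E9.5, a log2 difference of -3.61 ± 0.57. Neither gene's groups overlap. Lck averaged 20.1 ± 3.48 CPM at E10.5 and 17.8 ± 11.8 CPM at E9.5 (log2 difference 0.17 ± 0.61). Of all genes tested, edgeR called 555 in this comparison, 227 higher and 328 lower at E10.5. Overlap was again not counted over all genes. Between E8.5 and E9.5, where E10.5 HE plays no part, the tests were added after the values had been seen. Samsn1 averaged 49.3 ± 14.3 CPM in E9.5 HE and 94.7 ± 20.1 CPM in E8.5 HE, without overlap. It did not pass (log2 difference -0.94 ± 0.36, edgeR adjusted p = 0.11), nor did Ptpn7 (0.69 ± 0.47, edgeR adjusted p = 0.4).

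Lck was higher in E9.5 EC than in E8.5 EC. The tests between these days were added after the values had been seen, and Flt3, Tespa1 and Cd69, with at most 1 count in a group, could not be called in them. Lck had 25.7, 38.5 and 23.6 CPM in E9.5 EC, against 4.55, 2.63 and 0.188 CPM in E8.5 EC, without overlap. The log2 difference was 3.55 ± 0.68 (SE, edgeR adjusted p = 0.00073), and the call held without any of the 6 libraries, with a log2 difference of 3.03 to 4.33 (4.33 without E8.5 EC replicate 1). Lck was the 1 member called, where 19.7% of all genes were called and 10.1% called higher. The step to E10.5 EC, with 49.9, 65.5 and 55.9 CPM, did not overlap E9.5 EC either, but did not pass (log2 difference 0.96 ± 0.62, edgeR adjusted p = 0.54). There edgeR and DESeq2 called 0 members, 0 had an unadjusted p under 0.05, limma voom called Lck (adjusted p = 0.021), and 0.761% of all genes were called. In HE, Lck had 16.6, 30.2 and 6.70 CPM at E9.5, against 4.35, 3.11, 7.51 and 1.79 CPM at E8.5, with overlap (log2 difference 2.09 ± 0.58, edgeR adjusted p = 0.03). This call was lost with the replicate block (adjusted p = 0.11), with only these 2 populations in the fit (adjusted p = 0.063) and in 5 of 7 fits that left out a library (all but E8.5 HE replicate 3 and E9.5 HE replicate 3; adjusted p of 0.012 to 0.15 over the 7). Lck was again the 1 member called, with 6.54% of all genes called and 2.97% called higher.

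The other genes of the same pathways were counted in 6 lists with 107 genes, of which 93 were tested, in the 4 comparisons that involve blood populations. The lists were chosen with earlier results of these data known. In pre-HSC I against E10.5 HE, 14 of the 93 were higher and 10 lower, against 3.08% and 3.80% of all genes. In pre-HSC II against pre-HSC I, 2 were higher and 15 lower, against 0.138% and 4.28%. The 2 were Il4ra and Ptprc, the gene of CD45, by which these populations are usually told apart. In pre-HSC I against pro-HSC/HPC, 3 were higher and 5 lower, against 0.230% and 1.22%. In E9.5 pro-HSC/HPC against HE, 4 were higher and 1 lower, against 0.505% and 0.151%. The median log2 difference over the 93 was 0.24 for pre-HSC I against HE, against 0.01 over all genes, and 0.18, -0.04 and 0.29 in the other 3 comparisons in that order, against 0, 0 and 0.02. Without any single library, 12 of the 24 calls of pre-HSC I against HE, 10 of the 17 of pre-HSC II against pre-HSC I, 2 of the 8 of pre-HSC I against pro-HSC/HPC and 0 of the 5 of pro-HSC/HPC against HE held. Without pro-HSC/HPC replicates 2 and 3, which leaves 1 library there whose spread is assumed to be that of the other groups, 0 were called in pro-HSC/HPC against HE, and 2 (Kitl and Lef1, lower) in pre-HSC I against pro-HSC/HPC (edgeR). With the replicate block within each day, 22 were higher and 13 lower in pre-HSC I against HE. Same-numbered libraries correlated there at only 0.0853 to 0.266, so the pairing behind this block is uncertain.

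Around the interleukin-7 receptor, the partner chain fell while Il7r was higher. Il2rg, the common gamma chain that pairs with IL7R, had 45.7, 45.1 and 23.5 CPM in pre-HSC II, against 162, 99.5 and 61.8 CPM in pre-HSC I. The E10.5 HE libraries had 218, 283 and 304 CPM. The 3 populations did not overlap. Il2rg fell by 1.5 ± 0.33 log2 units in pre-HSC II against pre-HSC I (SE, edgeR adjusted p = 0.0041), a call lost without pre-HSC I replicate 1 or pre-HSC II replicate 3. It fell by 1.32 ± 0.33 in pre-HSC I against HE (edgeR adjusted p = 0.012), a call lost without E10.5 HE replicate 3 or pre-HSC I replicate 2 or 3. Il21r, another receptor chain that uses the common gamma chain, rose to 4.70, 3.95 and 1.65 CPM in pre-HSC I, against 6 counts in the 3 E10.5 HE libraries, all in replicate 3 (edgeR adjusted p = 0.027, lost in 4 of 6 fits that left out a library). Against the 3 counts of pro-HSC/HPC it was also higher in pre-HSC I (edgeR adjusted p = 0.038, kept in 1 of 6 such fits). Il4ra, which also pairs with the common gamma chain, averaged 23.8 ± 4.98 CPM in pre-HSC II and 8.06 ± 3.48 CPM in pre-HSC I (log2 difference 1.56 ± 0.41, edgeR adjusted p = 0.023, kept in 2 of 6 such fits). The ligand gene Il7 averaged at most 0.932 CPM in any population. Of the 15 genes of this list tested, 1 rose and 1 fell in each of the 2 comparisons within pre-HSC and against HE, 1 rose against pro-HSC/HPC, and 0 were called in pro-HSC/HPC against HE by edgeR, DESeq2 or limma voom (2 with an unadjusted p under 0.05). Its median log2 difference was 0.24 in pre-HSC I against HE and 0.105 in pre-HSC II against pre-HSC I, against 0.01 and 0 over all genes.

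**Figure D4:**
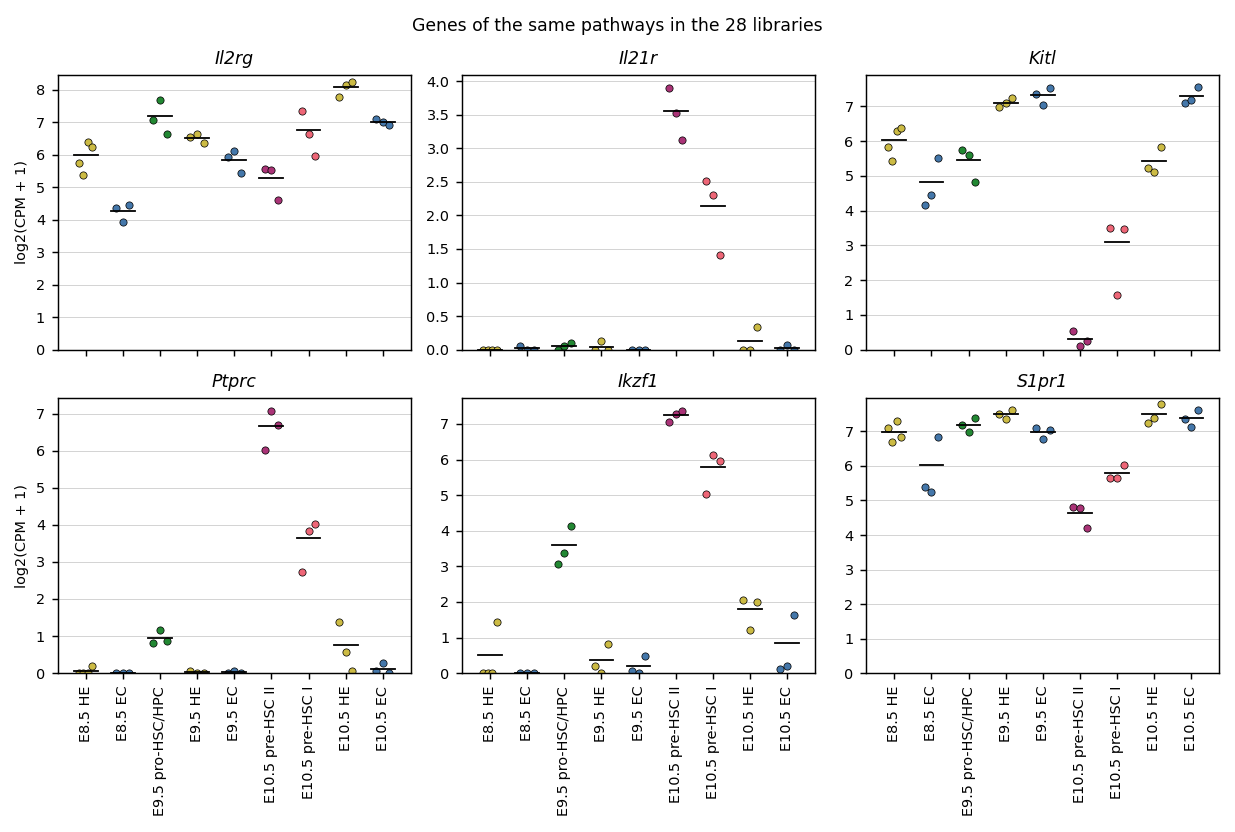
Other genes of the same pathways as log2(CPM + 1), with 1 point per library and a bar at the log2 of the mean CPM + 1. Il2rg, Kitl and S1pr1 are lower in pre-HSC II than in E10.5 HE, where Il2rg averages 268 CPM, and Il21r, Ptprc and Ikzf1 are higher. The vertical scale differs between panels.

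Among the relatives of FLT3, Kit and Kitl changed in opposite directions. Kit, the receptor for stem cell factor, averaged 244 ± 90.2 CPM in pre-HSC I and 50.9 ± 13.6 CPM in E10.5 HE, a rise of 2.26 ± 0.37 log2 units (SE, edgeR adjusted p = 0.00031). Kitl, its ligand, had 0.459, 0.0813 and 0.192 CPM in pre-HSC II, against 10.4, 1.95 and 10.2 CPM in pre-HSC I. E10.5 HE had 36.2, 33.8 and 55.5 CPM, and the 3 populations did not overlap. Kitl fell by 4.88 ± 0.59 log2 units in pre-HSC II against pre-HSC I (edgeR adjusted p = 2.2e-06) and fell by 2.48 ± 0.45 in pre-HSC I against HE (edgeR adjusted p = 0.00093). It also fell by 2.51 ± 0.45 in pre-HSC I against pro-HSC/HPC (edgeR adjusted p = 0.003). These calls of Kit and Kitl held without any single library. Csf1r, the macrophage growth factor receptor, averaged 1.48 ± 0.742 CPM in pre-HSC I, against 2 counts in HE (edgeR adjusted p = 0.027, kept in 3 of 6 fits that left out a library). Flt3l, the ligand of FLT3, averaged at most 3.19 CPM in any population. Csf1, the ligand of CSF1R, averaged 4.46 ± 0.246 CPM in pre-HSC II, 22.4 ± 10.2 CPM in pre-HSC I and 22.3 ± 11.4 CPM in E10.5 HE. Its pre-HSC II libraries lay below those of pre-HSC I without overlap, but edgeR did not call it there. Of the 5 genes of this list, edgeR called 2 higher and 1 lower in pre-HSC I against HE. It called 1 lower in pre-HSC II against pre-HSC I and 1 lower in pre-HSC I against pro-HSC/HPC. In pre-HSC II against pre-HSC I, DESeq2 called 2 lower, and limma voom 2 lower and 1 higher. In pro-HSC/HPC against HE edgeR called 0, DESeq2 called 1 lower and limma voom 1 higher and 1 lower, and 2 had an unadjusted p under 0.05. Its median log2 difference was 1.575 in pre-HSC I against HE and 0.19 in pre-HSC II against pre-HSC I.

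Of the recombination genes around Rag1, edgeR called 1 in the 4 comparisons. Rag2, the partner of Rag1, averaged 0.417 ± 0.534 CPM in pre-HSC II, with 27 of its 32 counts in replicate 1, and 0.169 CPM or less in the other populations. Dntt, which adds bases at the junctions of antigen receptor genes, had 3 counts in all, 1 each in E9.5 HE, E9.5 EC and E10.5 EC. Xrcc6, a subunit of the Ku end-joining complex that all cells use, averaged 95.3 ± 15.9 CPM in pre-HSC I and 46.4 ± 3.74 CPM in E10.5 HE (log2 difference 1.04 ± 0.27, edgeR adjusted p = 0.017, kept in 2 of 6 fits that left out a library). It was the 1 call among 9 tested genes of the list, of which 3 had an unadjusted p under 0.05 in that comparison and 1 in the other 3 comparisons together (edgeR). Dclre1c, the ARTEMIS nuclease of end joining, averaged 231 ± 58.7 CPM in pre-HSC II, 177 ± 27.3 CPM in pre-HSC I and 103 ± 62.0 CPM in E10.5 HE. DESeq2 called 1 gene as well and limma voom 3, and the median log2 difference lay between -0.04 and 0.41.

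Of 29 tested signalling genes downstream of antigen receptors, 8 rose in pre-HSC I against E10.5 HE, while Cd3e, a chain of the T cell receptor complex, had 0 counts. Prkcq, the protein kinase C of T cell signalling, averaged 16.2 ± 6.26 CPM in pre-HSC I and 0.232 ± 0.361 CPM in E10.5 HE, a rise of 6.02 ± 1.04 log2 units (SE, edgeR adjusted p = 0.00054). Ptprc, which encodes CD45, the phosphatase that activates LCK, had 64.2, 132.8 and 102.9 CPM in pre-HSC II, against 5.65, 13.3 and 15.2 CPM in pre-HSC I. The E10.5 HE libraries had 1.58, 0.491 and 0.0439 CPM. CD45 is the surface protein by which pre-HSC II is usually told from pre-HSC I, so higher Ptprc in pre-HSC II is no independent result. Ptprc rose by 3.13 ± 0.73 log2 units in pre-HSC II against pre-HSC I (edgeR adjusted p = 0.0084, lost without pre-HSC I replicate 1 or pre-HSC II replicate 2) and by 3.97 ± 0.78 in pre-HSC I against HE (edgeR adjusted p = 0.0021). Ptpn6, the phosphatase SHP-1, averaged 119 ± 12.9 CPM in pre-HSC I and 24.1 ± 16.2 CPM in HE (log2 difference 2.30 ± 0.45, edgeR adjusted p = 0.0017). Btk, a kinase of B cell receptor signalling, averaged 17.0 ± 1.30 CPM in pre-HSC I and 0.922 ± 0.628 CPM in HE (log2 difference 4.18 ± 0.87, edgeR adjusted p = 0.0034). The calls in pre-HSC I against HE of Prkcq, Ptprc, Ptpn6, Btk, Syk and Vav1 held without any single library, and those of Grap2 and Ptpn22 did not. The other 21 did not pass by edgeR, among them Cd247 with 1.06 ± 1.14 CPM in pre-HSC I and 7.07 ± 6.27 CPM in HE, and DESeq2 called 1 lower. The median log2 difference over the 29 was 0.56. Several of these genes also serve myeloid cells, and the granulocyte and macrophage markers rose alongside (summed level 158 to 287 CPM in pre-HSC I, against 10.2 to 16.9 CPM in E10.5 HE).

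In pre-HSC II against pre-HSC I, Ptprc rose and Cd5, a T cell surface protein, fell with 3 counts in pre-HSC II, against 46 in pre-HSC I (edgeR adjusted p = 0.037, a call that held in none of the 6 fits that left out a library). Among the 29 genes the median log2 difference there was 0.44. In pre-HSC I against pro-HSC/HPC, Ptprc and Ptpn6 rose, to means of 11.4 ± 5.06 and 119 ± 12.9 CPM in pre-HSC I, against 0.939 ± 0.272 and 29.6 ± 4.88 CPM in pro-HSC/HPC (edgeR adjusted p = 0.014 and 0.017). Both calls were lost without pro-HSC/HPC replicate 1 or 3 or pre-HSC I replicate 2. In pro-HSC/HPC against HE, 3 of the 29 rose. Ptpn6 averaged 29.6 ± 4.88 CPM in pro-HSC/HPC and 5.97 ± 1.65 CPM in HE (edgeR adjusted p = 0.0084, lost without E9.5 HE replicate 2 or 3). Btk averaged 3.12 ± 1.45 CPM in pro-HSC/HPC, against 5 counts in HE (edgeR adjusted p = 0.0097, lost without E9.5 HE replicate 1 or 2). Ptprc averaged 0.939 CPM in pro-HSC/HPC, against 1 count in HE (edgeR adjusted p = 0.029, kept in 1 of 6 fits that left out a library).

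S1pr1, the lipid receptor that CD69 binds, fell as Cd69 became higher. It had 26.9, 26.8 and 17.5 CPM in pre-HSC II, against 49.3, 49.6 and 64.2 CPM in pre-HSC I. E10.5 HE had 151, 166 and 220 CPM. The populations did not overlap. S1pr1 fell by 1.20 ± 0.30 log2 units in pre-HSC II against pre-HSC I (SE, edgeR adjusted p = 0.016, lost without pre-HSC I replicate 3 or pre-HSC II replicate 3) and fell by 1.72 ± 0.31 in pre-HSC I against HE (edgeR adjusted p = 0.00073). It also fell by 1.42 ± 0.30 in pre-HSC I against pro-HSC/HPC (edgeR adjusted p = 0.014, kept in 3 of 6 fits that left out a library). S1pr1 is also an endothelial gene, and the endothelial marker sum was lower in the same order, as given above. Mapk3, which encodes ERK1, a substrate of PTPN7, averaged 57.6 ± 9.84 CPM in pre-HSC II, 102 ± 28.6 CPM in pre-HSC I and 207 ± 22.4 CPM in E10.5 HE. Its log2 difference was -0.83 ± 0.22 in pre-HSC II against pre-HSC I (edgeR adjusted p = 0.027, kept in 2 of 6 such fits) and -1.02 ± 0.22 in pre-HSC I against HE (edgeR adjusted p = 0.0049, lost without pre-HSC I replicate 2). Itpr3, an IP3 receptor of the family that TESPA1 is tied to, averaged 2.40 ± 0.604 CPM in pre-HSC II and 15.9 ± 7.85 CPM in pre-HSC I, a fall of 2.73 on the log2 scale (SE 0.56, edgeR adjusted p = 0.0023) that held without any single library. Of the 11 genes tested here, 2 fell in pre-HSC I against HE, 3 fell in pre-HSC II against pre-HSC I, 1 fell in pre-HSC I against pro-HSC/HPC, and 0 were called in pro-HSC/HPC against HE by edgeR, DESeq2 or limma voom (1 with an unadjusted p under 0.05). The median log2 difference was -0.97 in pre-HSC I against HE and -0.46 in pre-HSC II against pre-HSC I.

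Of 24 lymphoid transcription factors tested, edgeR called 9 lower and 0 higher in pre-HSC II against pre-HSC I. Over all genes it called 652 lower and 21 higher there. DESeq2 called 9 lower and 1 higher, and limma voom 9 lower and 2 higher. Id3, an inhibitor of E proteins, averaged 23.8 ± 12.2 CPM in pre-HSC II and 428 ± 258 CPM in pre-HSC I, a fall of 4.17 on the log2 scale (SE 0.37, edgeR adjusted p = 3.3e-08). Ets1 averaged 35.6 ± 2.15 CPM in pre-HSC II and 102 ± 18.9 CPM in pre-HSC I (log2 difference -1.52 ± 0.22, edgeR adjusted p = 2.2e-05). Tcf7, which drives T cell fate, averaged 1.57 ± 0.302 CPM in pre-HSC II and 8.74 ± 3.40 CPM in pre-HSC I (log2 difference -2.47 ± 0.44, edgeR adjusted p = 0.0004). Lef1 averaged 0.0614 ± 0.0740 CPM in pre-HSC II and 2.12 ± 1.77 CPM in pre-HSC I (edgeR adjusted p = 5.4e-05). The calls of Id3, Ets1, Lef1, Tcf7, Notch1, Id2, Gata3 and Foxo1 held without any single library, and that of Ebf1, a B cell factor, was lost without pre-HSC II replicate 3. Several of them, such as Ets1, Notch1, Id3 and Foxo1, also act in endothelium. Ikzf1 was not called by edgeR here but was higher in pre-HSC II without overlap. It ran from 133 to 163 CPM in pre-HSC II and from 31.8 to 69.6 CPM in pre-HSC I. The median log2 difference over the 24 was -0.145.

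Against E10.5 HE, 6 of the 24 factors fell and 2 rose in pre-HSC I. Ikzf1, which encodes IKAROS, averaged 54.2 ± 19.8 CPM in pre-HSC I and 2.49 ± 1.01 CPM in HE, a rise of 4.43 ± 1.08 log2 units (SE, edgeR adjusted p = 0.012) lost without E10.5 HE replicate 2 or 3. Ets1, Notch1 and Id3 fell in that comparison, with log2 differences of -1.36 ± 0.21, -1.43 ± 0.26 and -1.73 ± 0.33 (edgeR adjusted p = 0.00021, 0.001 and 0.0014), and these calls held without any single library. Of the 24, 3 fell in pre-HSC I against pro-HSC/HPC. Lef1 averaged 2.12 ± 1.77 CPM in pre-HSC I and 20.2 ± 1.58 CPM in pro-HSC/HPC (log2 difference -3.24 ± 0.53, edgeR adjusted p = 0.0013) and held without any single library. Ets1 and Notch1 had log2 differences of -1.04 ± 0.21 and -1.20 ± 0.26 there (edgeR adjusted p = 0.0089 and 0.015), kept in 4 and in 2 of 6 fits that left out a library. In pro-HSC/HPC against HE, Ikzf1 had 7.41, 9.46 and 16.5 CPM in pro-HSC/HPC, against 0.142, 0 and 0.750 CPM in HE. The groups do not overlap (log2 difference 5.22 ± 1.22, edgeR adjusted p = 0.043, a call that held in none of the 6 fits that left out a library). Ets1 averaged 210 ± 9.27 CPM in pro-HSC/HPC and 446 ± 56.5 CPM in HE (log2 difference -1.09 ± 0.21, edgeR adjusted p = 0.008, lost without E9.5 HE replicate 2).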

How the data were processed

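Per the labels' protocols, 28 pools of 100 sorted cells gave polyA RNA for libraries of the SMARTer Ultra Low Input type. The authors deposited raw counts per gene with exon coordinates. Per the submitters' processing notes, TopHat, SAMtools, Subread and featureCounts 1.6.2 were used with the genome build mm9. No annotation release, strand setting or rule for reads with several matches is stated there, so reads of overlapping or antisense genes cannot be told apart. Depth was 16308918 to 31405603 counts per library. Each pair of replicates differed by more than sampling noise (chi-square divided by its degrees of freedom was at least 38.5), and none were merged.

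Counts were scaled with TMM factors and tested with edgeR 4.0.16 (quasi-likelihood, R 4.3.3) in 1 fit of all 9 populations, after filterByExpr with a minimum count of 10, which kept 15238 of 24015 genes. P-values were adjusted by Benjamini-Hochberg over all genes tested and called under 0.05. DESeq2 1.42.0 and limma 3.58.1 (voom with quality weights) were alternatives, beside other size factors, filters, replicate blocks, fits of the compared populations only and fits without single libraries. Intervals (95%) and the floor of 3 counts cover counting error only. All 8 genes are named. In each list and comparison, up to 4 other genes with the lowest adjusted p are given with values, and others were named after their values were seen. The members and lists were chosen with earlier results of these data known. A test of E10.5 HE against EC had been planned for the members, and their differences there are given as descriptions because those HE libraries are the base of the rise on which several were selected. In 3 comparisons the deviations of every same-numbered pair of libraries passed a cutoff on their correlation. These were E9.5 pro-HSC/HPC against HE (0.135 to 0.344), E9.5 HE against EC (0.105 to 0.279) and E8.5 HE against EC (0.174 to 0.215). Within E10.5 not every pair passed. The correlations were 0.0824 to 0.264 in HE against EC, 0.0853 to 0.266 in pre-HSC I against HE and 0.0385 to 0.396 in pre-HSC II against pre-HSC I. Libraries of different numbers were not compared, and the labels do not say what the numbers share. Pairing by number is therefore not established.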

Additional observations from a re-analysis of the deposited data

Results flagged for a closer look

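E8.5 HE was the population with 4 libraries, and no library stood apart in it for the 4 genes with counts there (Samsn1, Ptpn7, Lck and Il7r). Populations of 3 libraries were not examined.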

How the results depend on the processing

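In pro-HSC/HPC against HE, the count of members called was 1 without a filter on low counts and 1 with the within-day replicate block (Flt3 in both), and 0 to 1 without single libraries. As given above, Flt3 has no independent test in this comparison, so no conclusion is drawn from these calls. Pathway genes called lower there were 2 without the filter, with a filter of 10 CPM, with that block and by DESeq2, 3 with only the 2 populations and by limma voom, and 0 without the hemoglobin-rich libraries (0 to 1 without single libraries). Those higher were 0 and, by voom, 11 (0 to 3 without single libraries). In pre-HSC I against HE, 22 were higher with the within-day block and 22 by voom (7 to 13 higher and 5 to 9 lower without single libraries). In pre-HSC II against pre-HSC I, 1 was higher without the filter, 7 with only the 2 populations and 13 by voom (0 to 2 higher and 10 to 14 lower without single libraries). In pre-HSC I against pro-HSC/HPC, 5, 0, 6 and 18 were higher and 3, 2, 8 and 10 lower with only the 2 populations, without the hemoglobin-rich libraries, by DESeq2 and by voom, in that order (0 to 3 higher and 2 to 5 lower without single libraries).

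By voom the members called were 2 in E9.5 against E8.5 EC, 1 in E10.5 against E9.5 EC, and 2 in E9.5 against E8.5 HE. In E9.5 against E8.5 HE it was 0 with the replicate block, 0 with only the 2 populations, and 0 to 1 without single libraries. Across days the numbers share no more than a number, and the block changed no other count of members called. Ptpn7 changed sign in E9.5 HE against EC with other size factors (8.39e-06) and DESeq2 (8.74e-05), and in E8.5 HE against EC by voom (0.149). Without single libraries its log2 difference ran over -0.297 to 0.292 in E9.5 HE against EC, -0.727 to 0.0889 in E8.5 HE against EC, -0.0157 to 0.801 in E9.5 against E8.5 EC and -0.586 to 0.245 in E10.5 against E9.5 EC, and that of Lck over -0.216 to 0.781 in E10.5 against E9.5 HE. The cause was not tested. Of 641 refitted log2 differences of members, 594 were counted as unchanged. In comparisons with pre-HSC, which were not tested, this meant a shift smaller than the pooled SD of log2(CPM + 1) within the populations. In the other comparisons it meant the same direction and side of the threshold.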
